A study of Mus musculus with 2 samples.

Results

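The genes described here form one signalling axis that brings neutrophils into tissue: the chemokines Cxcl1, Cxcl2 and Cxcl3, their receptor Cxcr2, and Csf3r, the receptor for granulocyte colony-stimulating factor. They were taken by symbol, 5 of the 27998 genes in the count matrices, and all 5 had UMIs in both libraries (a UMI, or unique molecular identifier, is the barcode that lets copies of 1 RNA molecule be counted once). The libraries held live leukocytes, sorted as DAPI-negative CD45+ cells from digested dorsal skin of C57Bl/6 mice. One came from 4 pooled wild-type mice (WT) and one from 4 pooled knockout mice (IL31RAKO) without the alpha chain of the receptor for IL-31, an itch cytokine. Both groups had Biostir ointment with house dust mite (D. farinae) put on the shaved back 2 times weekly over 3 weeks, with 2% SDS on the same site 2 hours before each application. With 1 library per genotype there is no replicate, no test and no p-value here. Brackets hold exact 95% intervals, which reflect the counting of molecules alone: differences among mice, pools, sorts and single cells are not in them, and a gene counted mostly in a handful of cells has an interval that is too narrow.

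CXCL1, CXCL2 and CXCL3 are small secreted proteins that bind the G protein-coupled receptor CXCR2 on neutrophils and direct them along a gradient out of blood vessels. Their transcripts are induced within minutes to hours by NF-kB after IL-1, TNF, IL-17 or microbial signals and are kept short-lived by AU-rich elements in their tails. CSF3R carries the signal of the growth factor G-CSF, which drives neutrophil production and survival, and both receptors are expressed mainly by cells of the neutrophil lineage, with CXCR2 known also from basophils and mast cells.

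The WT library gave 11934 cells with a median of 2918.5 UMIs and the IL31RAKO library 14619 cells with a median of 3181. A cell was a barcode with 500 or more UMIs, 250 or more genes and under 10% mitochondrial UMIs. The libraries shared 247 cell barcodes, against 236.6 for independent draws from the barcode list. Cells were named "-like" from fixed marker genes that excluded the 5 genes described, and 13 classes had 50 or more cells in each library. Il31ra, the targeted gene, had 11 UMIs [5.49, 19.7] in WT and 26 [17.0, 38.1] in IL31RAKO, and as reads come from transcript ends, which the deletion may leave in place, these counts check nothing. Neutrophil-like cells numbered 222 in WT, 1.86% of cells [1.63, 2.12], and 1004 in IL31RAKO, 6.87% [6.46, 7.29]. They were shallow, with medians of 1180.0 and 1213.5 UMIs. Their 10 leading genes included S100a8, S100a9, Retnlg and Stfa2l1, which were gating markers of this class, so their place there was set by the gate.

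The ligand genes lie on one strand of mouse chromosome 5 (GRCm38, the build named mm10, plus strand): Cxcl3 (ENSMUSG00000029379) at chr5:90786103-90789600, Cxcl1 (ENSMUSG00000029380) at chr5:90891241-90893115 and Cxcl2 (ENSMUSG00000058427) at chr5:90903871-90905938. They span 119836 bases from first start to last end. Cxcr2 (ENSMUSG00000026180) is at chr1:74153989-74161246 and Csf3r (ENSMUSG00000028859) at chr4:126024550-126044440, both on the plus strand. The 3 ligand promoters are printed to show letters that the ligands share there. Each is the 300 bases around the gene's start in RefSeq (GRCm38.p6, plus strand, 250 before and 50 from the start on), at chr5:90890995-90891294 for Cxcl1, chr5:90903649-90903948 for Cxcl2 and chr5:90785851-90786150 for Cxcl3. Capitals mark the words of 8 or more bases that all 3 share before the start: GGGAATTTCCC, which holds the letters of an NF-kB site, and ATAAAAGG, which holds a TATA-box-like run.
Cxcl1: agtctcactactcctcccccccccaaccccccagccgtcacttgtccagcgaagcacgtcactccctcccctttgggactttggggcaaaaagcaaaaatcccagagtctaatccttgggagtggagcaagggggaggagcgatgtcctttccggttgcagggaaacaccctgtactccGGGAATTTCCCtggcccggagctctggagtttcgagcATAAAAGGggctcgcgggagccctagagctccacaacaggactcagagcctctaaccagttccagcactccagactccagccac
Cxcl2: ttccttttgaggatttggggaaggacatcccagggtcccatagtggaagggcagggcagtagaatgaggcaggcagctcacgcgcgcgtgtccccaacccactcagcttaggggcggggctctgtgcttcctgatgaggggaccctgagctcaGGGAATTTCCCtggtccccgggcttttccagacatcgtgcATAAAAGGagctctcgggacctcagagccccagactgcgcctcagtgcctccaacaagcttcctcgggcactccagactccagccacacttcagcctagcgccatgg
Cxcl3: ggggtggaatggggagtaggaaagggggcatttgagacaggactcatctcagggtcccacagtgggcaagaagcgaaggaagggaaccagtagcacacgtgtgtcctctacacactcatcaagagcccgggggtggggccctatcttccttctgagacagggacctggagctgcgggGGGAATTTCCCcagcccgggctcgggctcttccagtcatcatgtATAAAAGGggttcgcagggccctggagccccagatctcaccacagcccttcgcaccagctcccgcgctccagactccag
GGGAATTTCCC began 71 bases before the start of Cxcl1, 97 before that of Cxcl2 and 73 before that of Cxcl3, and ATAAAAGG began 34, 57 and 29 bases before it. These words were picked from the 3 promoters themselves, so their presence there is no finding, were then searched on both strands, and do not overlap each other. On either strand GGGAATTTCCC was in 14 of 32851 promoters of the same length (0.0426%) and ATAAAAGG in 577 (1.76%). Both stood on the gene's own strand in 3 promoters (0.00913%), which were those of Cxcl1, Cxcl2 and Cxcl3. Neither was in the windows of Cxcr2 or Csf3r, and with words this rare that absence is no finding either. In the last 500 bases of the transcript, the pentamer ATTTA, the core of AU-rich decay elements, occurred 5 times in each ligand and 0 times in either receptor. The median over 21405 genes was 1, and 307 genes (1.43%) held 5 or more. A match is a description of letters, not of a site in use. The ligands are similar genes, but of 41 sampled stretches of 98 bases, the length of the transcript read, in the last 500 bases of each of the 5 genes, 0 were found in another gene.

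Over all cells, each of the 5 genes was higher in the IL31RAKO library. Levels are CPM, the gene's UMIs summed over the cells and scaled to 1000000 UMIs of all genes, and since 1 tag is read per molecule at its 3′ end they are not divided by gene length. Cxcl2 had 29289 UMIs in WT (633.5 CPM) and 103185 in IL31RAKO (1681 CPM), a ratio of 2.65 [2.62, 2.69]. Cxcl1 had 340 and 869 UMIs (7.35 and 14.2 CPM), a ratio of 1.93 [1.70, 2.19]. Cxcl2 was thus by far the most counted of the ligands in both libraries. Cxcl3 had 438 and 2389 UMIs (9.47 and 38.9 CPM), a ratio of 4.11 [3.71, 4.56], and 110 of its WT UMIs lay in 1 cell that no class claimed. Without the deepest cell of each library the Cxcl3 ratio was 5.38. Cxcr2 had 441 and 1298 UMIs (9.54 and 21.2 CPM), a ratio of 2.22 [1.99, 2.48]. Csf3r had 749 and 2465 UMIs (16.2 and 40.2 CPM), a ratio of 2.48 [2.28, 2.69]. All 5 of 5 passed a 1.5-fold rise, which 5.37% of the 13307 genes with 50 or more UMIs passed, and 5 of 5 had an interval wholly above 1, as had 16.6% of those genes.

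The share of neutrophil-like cells moved with these ratios. Neutrophil-like cells held 26.9% of all Cxcl2 UMIs in WT and 51.0% in IL31RAKO, 26.3% and 63.1% of Cxcl3, 13.5% and 29.6% of Cxcl1, 36.5% and 57.9% of Cxcr2, and 28.7% and 45.3% of Csf3r. Of the difference between the libraries' overall levels, they held 46.9% for Cxcl1, 56.5% for Csf3r, 65.5% for Cxcl2, 74.9% for Cxcl3 and 75.5% for Cxcr2. With each class given its WT share of UMIs, the overall ratios were 1.54 for Cxcl1, 1.60 for Cxcl2, 2.22 for Cxcl3, 1.29 for Cxcr2 and 1.47 for Csf3r. Each stayed above 1. With neutrophil-like cells left out, an alternative added after the data were seen, the ratios were 1.59, 1.81, 2.09, 1.49 and 1.94 in the same order. The plot of UMI shares shows the same shift, together with the WT classes other than neutrophils.

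**Figure D1:**
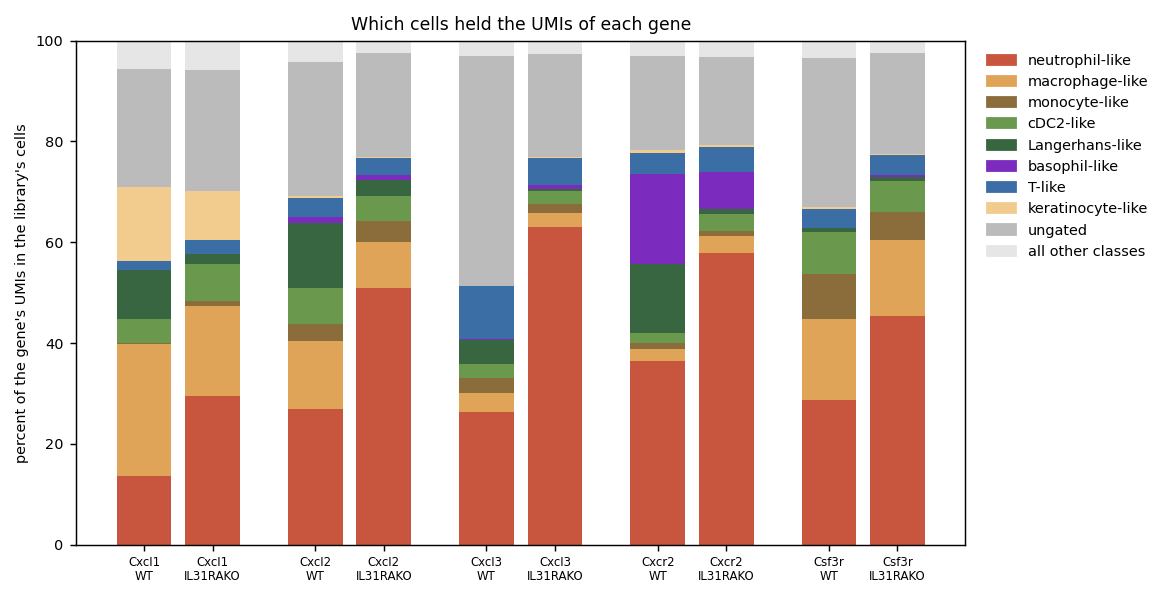
Stacked bars give, for each gene (x axis, WT then IL31RAKO), the percent of its UMIs in that library's cells (y axis) held by each cell class. The neutrophil-like part of Cxcl2 was 26.9% in WT and 51.0% in IL31RAKO, and basophil-like cells stand out only in the bars of Cxcr2, at 17.7% and 7.47%.

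Within neutrophil-like cells the ratios of Cxcl2 and Cxcl3 had intervals above 1, while those of Cxcl1 and both receptors held 1. Cxcr2 had 161 UMIs in 103 of 222 WT cells (591.5 CPM) and 752 in 481 of 1004 IL31RAKO cells (556.5 CPM), a ratio of 0.94 [0.79, 1.12]. Csf3r had 215 UMIs in 130 cells (789.9 CPM) and 1116 in 636 cells (825.8 CPM), a ratio of 1.05 [0.90, 1.22]. Neither receptor's interval left out 1, so a difference within these intervals was not detectable at this depth. Cxcl2 had 7887 UMIs in WT (28977 CPM [28341, 29624]) and 52614 in IL31RAKO (38932 CPM [38601, 39267]), a ratio of 1.34 [1.31, 1.38]. Almost every neutrophil-like cell held some: 211 of 222 in WT and 986 of 1004 in IL31RAKO, with medians of 28 and 41 UMIs per cell. Cxcl3 had 115 UMIs in 31 WT cells (422.5 CPM) and 1507 in 302 IL31RAKO cells (1115 CPM), a ratio of 2.64 [2.18, 3.22]. Cxcl1 was carried by few cells, with 46 UMIs in 7 WT cells (169 CPM) and 257 in 47 IL31RAKO cells (190.2 CPM), a ratio of 1.13 [0.82, 1.58]. Of the 5 genes, 1 passed a 1.5-fold rise, Cxcl3, against 6.87% of the 2809 genes with 50 or more UMIs in this class. It was 0 of 5 for a fall of that size, against 12.2%, and 2 of 5 for an interval wholly above 1, Cxcl2 and Cxcl3, against 5.09%.

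The 8 gating markers and Ngp, the neutrophil list as a whole, moved in this class as well: their summed level was 71031 CPM in WT and 95343 CPM in IL31RAKO. Per UMI of that list, Cxcl2 had 0.408 UMIs in WT and 0.408 in IL31RAKO. The part of this in the Cxcl2 ratio was not tested. Monocyte markers summed to 1341 CPM in WT and 1951 CPM in IL31RAKO, and macrophage markers to 393.1 and 586.1 CPM. In single cells the median was 9.53 and 14.0 monocyte marker UMIs per 10000 and 0 macrophage marker UMIs in both libraries. With each cell thinned to 500 UMIs, so that depth was equal, Cxcl3 was found in 9.91% of WT [6.32, 14.6] and 21.8% of IL31RAKO neutrophil-like cells [19.3, 24.5]. Cxcr2 was found in 26.6% and 24.7%, Csf3r in 33.8% and 36.0%, Cxcl2 in 93.7% and 97.3% and Cxcl1 in 2.70% and 3.39%. Of these shares the intervals of Cxcl3 alone did not overlap.

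**Figure D2:**
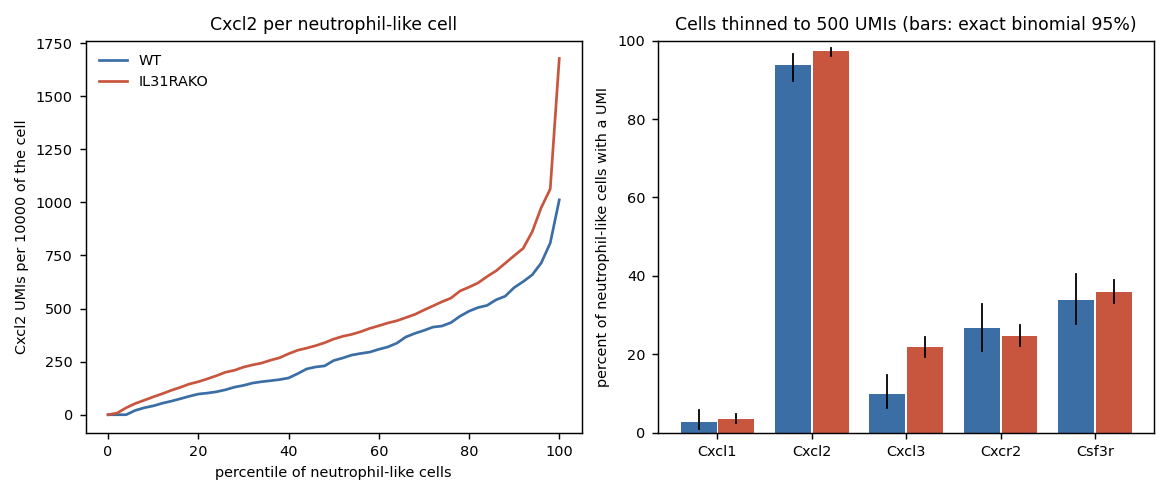
Left, Cxcl2 UMIs per 10000 of the cell (y axis) at each percentile of neutrophil-like cells (x axis), 1 line per library. Right, percent of neutrophil-like cells with a UMI of each gene after thinning to 500 UMIs, with exact binomial 95% intervals. The IL31RAKO line runs above the WT line over nearly the whole range, with medians of 356.3 and 255.2, and the Cxcl3 bars are 21.8% and 9.91%.

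Single cells differed widely in the ligands. Across neutrophil-like cells, the interquartile range of Cxcl2 was 12.3 to 50 UMIs per cell in WT and 21 to 74 in IL31RAKO, with maxima of 177 and 313. The 23 WT and 101 IL31RAKO cells with most Cxcl2 held 30.5% and 28.5% of its UMIs. Cxcl3 was far more uneven, with 93.0% of its WT UMIs and 71.0% of its IL31RAKO UMIs in equally many cells. Receptor counts per cell were small, with maxima of 4 and 8 UMIs for Cxcr2 and of 5 and 6 for Csf3r. In cells thinned to 500 UMIs, each neutrophil-like cell with Cxcl3 also had Cxcl2, 22 of 22 in WT and 219 of 219 in IL31RAKO. Cells without Cxcl3 had Cxcl2 in 93.0% and 96.6% of cases, so this overlap leaves little room to differ. Cxcl1 was found in 10 of 219 IL31RAKO cells with Cxcl3 (4.57%) and in 24 of 785 without (3.06%). The receptors showed little relation to Cxcl3 in the larger library: Cxcr2 was in 25.6% of IL31RAKO cells with Cxcl3 and 24.5% of those without, and Csf3r in 31.1% and 37.3%.

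Across the 13 classes, neutrophil-like cells had the highest level of all 5 genes in both libraries, and the next class differed from gene to gene. For Cxcl2 the order in WT went on with basophil-like (1313 CPM), Langerhans-like (1082), macrophage-like (1024), monocyte-like (753.9) and cDC2-like cells (313.3), where the intervals of Langerhans-like and macrophage-like cells overlapped. The place of basophil-like cells in WT rested on 1 cell with 99 of their 318 UMIs: without it they were at 916.6 CPM [799.2, 1046], below Langerhans-like and macrophage-like cells and with an interval that overlapped that of the latter. Only 24.1% of WT basophil-like cells had a Cxcl2 UMI, against 66.8% of Langerhans-like cells. In IL31RAKO it went on with basophil-like (2668), monocyte-like (1358), Langerhans-like (1180.0) and macrophage-like cells (940.1), with no overlap between neighbours. T-like cells had 90.4 CPM in WT and 309.4 CPM in IL31RAKO, and keratinocyte-like cells 84.3 and 289.7 CPM. For Cxcl1, keratinocyte-like cells came next, with 40.9 CPM in WT and 104.1 CPM in IL31RAKO. Keratinocytes are a known source of CXCL1 in inflamed skin, but these are the few that passed a CD45+ sort (107 and 59 cells), and 19 of 50 UMIs in WT and 44 of 83 in IL31RAKO lay in 1 cell. Macrophage-like (23.2 CPM), fibroblast-like (22.5 CPM) and mature DC-like cells (15.3 CPM) followed in WT with overlapping intervals. Basophil-like cells had 0 Cxcl1 UMIs in both libraries, and a limit of 3 cells set by that count still permits 3.45% of the 87 WT cells and 2.13% of the 141 IL31RAKO cells to hold one.

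For Cxcl3, none of the 13 classes other than neutrophil-like cells passed 10 CPM in WT. The WT levels of monocyte-like (9.51 CPM), regulatory T-like (8.39 CPM) and Langerhans-like cells (5.94 CPM) overlapped in their intervals, and the first fell to 1.47 CPM without 1 cell. In IL31RAKO, basophil-like cells came next at 43.5 CPM, from 17 UMIs in 3 cells. For Csf3r, monocyte-like cells followed neutrophil-like cells with 48.3 CPM in WT and 43.4 CPM in IL31RAKO, then macrophage-like cells with 31.5 and 37.6 CPM, and these neighbours overlapped in both libraries. Csf3r is known from monocytes as well as neutrophils. It was found in 19.5% of WT and 19.1% of IL31RAKO monocyte-like cells, against 0.602% and 2.57% of T-like cells, which should lack it and had medians of 2723 and 2846 UMIs beside 4883 and 5031.5 in monocyte-like cells.

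**Figure D3:**
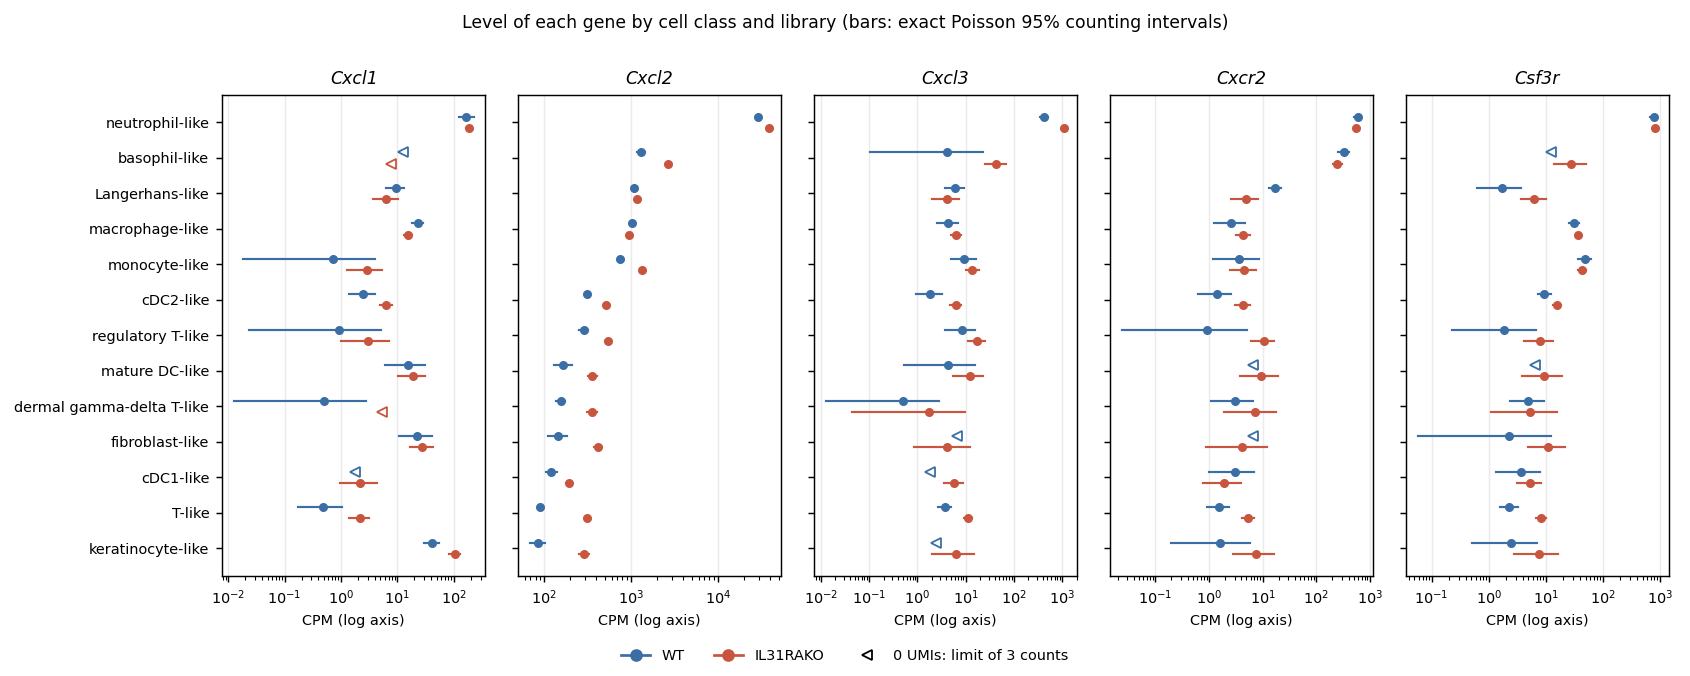
Level of each gene in CPM (log axis, 1 panel per gene) in the 13 classes, WT in blue and IL31RAKO in red, with exact Poisson 95% intervals. Open triangles stand for 0 UMIs, at the limit that a count of 0 allows. Neutrophil-like cells lie highest in every panel, and basophil-like cells come close only for Cxcr2, at 322.1 and 248.4 CPM.

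Cxcr2 stood high in basophil-like cells too. They had 78 Cxcr2 UMIs in 43 of 87 WT cells (322.1 CPM) and 97 in 58 of 141 IL31RAKO cells (248.4 CPM), a ratio of 0.77 [0.57, 1.05]. The most in 1 cell was 4 and 5 UMIs, so the counts were spread over many cells. Retnlg, a gating marker of neutrophils, was found in 0 of the 43 WT cells with Cxcr2 and 1 of the 58 in IL31RAKO. Its rarity there was partly set by the gate. The whole neutrophil list in basophil-like cells was at 94.98 CPM in WT and 998.7 CPM in IL31RAKO. The part of neutrophil RNA in their Cxcr2 counts was not tested. In Langerhans-like cells, named for the dendritic cells that sit in the epidermis, Cxcr2 was lower in IL31RAKO. There were 61 UMIs in 37 of 367 WT cells (17.2 CPM) and 13 in 11 of 225 IL31RAKO cells (4.85 CPM), a ratio of 0.28 [0.14, 0.52]. The share of these cells with a UMI was 10.1% in WT and 4.89% in IL31RAKO, at medians of 9840.0 and 11540.0 UMIs. T-like cells, which should lack the gene, had shares of 0.351% and 1.495% at their lower depth and levels of 1.52 and 5.38 CPM, so the IL31RAKO level in Langerhans-like cells was no higher than that of T-like cells. Thinned to 1000 UMIs, 2.27% of WT [0.986, 4.43] and 0.905% of IL31RAKO Langerhans-like cells [0.110, 3.23] had a Cxcr2 UMI, and these intervals overlapped. Retnlg was found in 0 of the 37 and 2 of the 11 Langerhans-like cells with Cxcr2. In that class the neutrophil list went the other way, from 746.6 CPM in WT to 1683 CPM in IL31RAKO, and 3.16% of its 7413 genes were lower by 1.5-fold or more, as was Cxcr2 alone of the 3 members with 50 or more UMIs there.

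Outside neutrophil-like cells, Cxcl2 was higher in IL31RAKO in most classes. Its interval lay above 1 in 12 of 13 classes, neutrophil-like cells included, and below 1 in macrophage-like cells. The share of genes with an interval above 1 ran from 5.09% to 15.0% over these classes. Monocyte-like cells had 1031 and 4288 UMIs, a ratio of 1.80 [1.68, 1.93]. The gene was 1.66 times as high in cDC2-like cells [1.58, 1.75] and 2.03 times in basophil-like cells [1.79, 2.31]. T-like cells had a ratio of 3.42 [3.199, 3.66], and 112 of their 1130 WT and 156 of their 3569 IL31RAKO UMIs lay in 1 cell. Neutrophil markers moved the same way in these classes: their summed level in T-like cells was 364 CPM in WT and 863.1 CPM in IL31RAKO, in cDC2-like cells 232.2 and 612.7 CPM, and in basophil-like cells 94.98 and 998.7 CPM. Per UMI of those markers, Cxcl2 had 0.248 and 0.359 UMIs in T-like cells, 0.408 in neutrophil-like cells of either library, 1.35 and 0.848 in cDC2-like cells and 13.8 and 2.67 in basophil-like cells. With the estimated free RNA taken off, the ratio was 6.59 in T-like, 1.87 in cDC2-like, 1.88 in monocyte-like and 2.05 in basophil-like cells. Each was higher than before. The profile taken off, from barcodes of 10 to 50 UMIs, had more Cxcl2 in WT. The share taken off was also larger in WT in these classes, 4.445% against 3.157% in T-like cells. The rise of the ratios thus follows from the subtraction, and the part of carried-over RNA in them was not tested. Barcodes of 10 to 50 UMIs (10271 in WT and 8902 in IL31RAKO) were taken here as free RNA. In them Cxcl2 was at 1075 CPM [946.4, 1216] in WT and 779 CPM [658.5, 915.1] in IL31RAKO. Both were above its level in T-like cells of either library. In the 63125 WT and 57056 IL31RAKO barcodes of 51 to 499 UMIs it went the other way, at 408.8 and 1069 CPM. Which set holds the free RNA was not tested, so no direction of the background is read.

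In macrophage-like cells Cxcl1 and Cxcl2 were lower in the IL31RAKO library. Cxcl1 had 89 UMIs in 29 of 1320 WT cells (23.2 CPM) and 154 in 63 of 2819 IL31RAKO cells (15.5 CPM), a ratio of 0.67 [0.51, 0.88]. Of these, 4 WT cells and 7 IL31RAKO cells held at least 50% of the UMIs. Cxcl2 had 3932 and 9327 UMIs (1024 and 940.1 CPM), a ratio of 0.92 [0.88, 0.95]. Thus 2 of 5 had an interval below 1, against 7.65% of the genes in this class. Both turned under another setting: with classes taken from clusters the Cxcl1 ratio was 1.47, and as a mean over cells the Cxcl2 ratio was 1.15. Of the 5 genes 1 passed a 1.5-fold rise in this class, Cxcr2, with 10 and 43 UMIs and a ratio of 1.66 [0.82, 3.71] that was 0.86 with doublets removed, against 4.32% of 9174 genes. In cDC2-like cells 5 of 5 passed it, against 1.98% of 9355 genes, from as few as 9 and 42 UMIs for Cxcr2. With doublets removed 3 of these were under 1.5, Cxcl1 at 1.39, Cxcl2 at 1.46 and Csf3r at 1.40, and with classes from clusters 2 were, Cxcl2 at 1.31 and Csf3r at 1.38. In T-like cells 4 of the 4 genes with 50 or more UMIs passed it, against 2.95% of 10445 genes. In cDC2-like and T-like cells the summed neutrophil markers were higher in IL31RAKO too, as given above. They were also higher in macrophage-like cells, at 165.2 CPM in WT and 584.2 CPM in IL31RAKO, where Cxcl1 and Cxcl2 were lower.

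**Figure D4:**
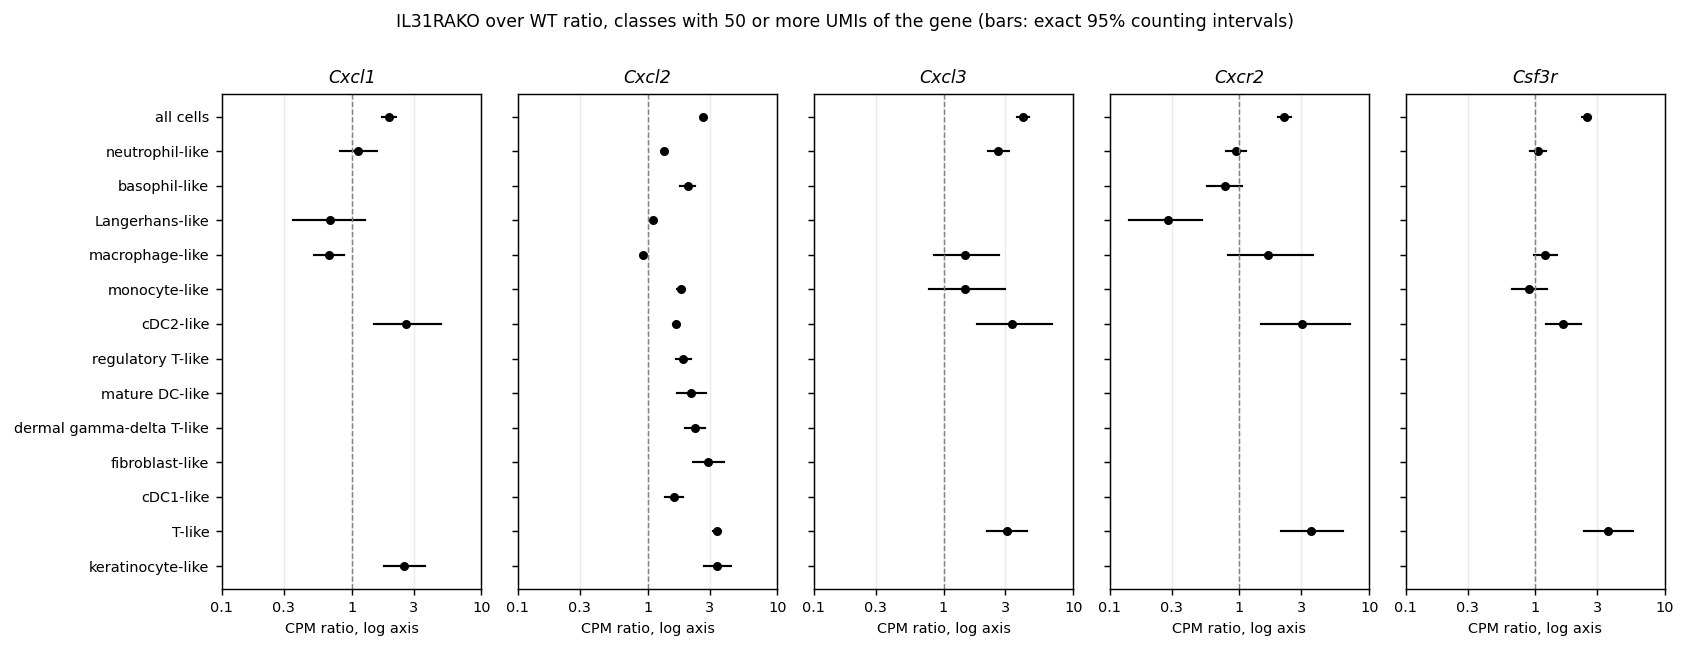
IL31RAKO over WT ratio of CPM (log axis, dashed line at 1) with exact 95% counting intervals, for all cells and for each class with 50 or more UMIs of the gene. Over all cells the 5 ratios run from 1.93 to 4.11, while in neutrophil-like cells Cxcr2, Csf3r and Cxcl1 have intervals that hold 1, and Cxcr2 in Langerhans-like cells lies at 0.28.

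Other genes of the axis were read from 8 lists of the pathway. In neutrophil-like cells the median log2 ratio of all 2809 genes was -0.10, with 6.87% higher and 12.2% lower by 1.5-fold or more. Of 11 receptors of migration and survival with 50 or more UMIs, 3 were higher by 1.5-fold or more and 0 lower, with a median of 0.24. These were Fpr1 and Fpr2, receptors for formylated and related peptides, at 2.01 [1.31, 3.24] and 1.52 [1.08, 2.19] times the WT level, and Ltb4r1, the leukotriene B4 receptor, at 1.57 [1.18, 2.12]. Cxcr4, which holds neutrophils in bone marrow, was at 0.68 [0.53, 0.88]. Of 10 NF-kB and mRNA decay regulators, 0 were higher and 2 lower by 1.5-fold, with a median of -0.43. The count of lower genes stands beside 12.2% of all genes in the class, and nothing is read from it. Tnfaip3, which restrains NF-kB, had 154 and 451 UMIs (565.8 and 333.7 CPM), a ratio of 0.59 [0.49, 0.71]. Nfkbia, the inhibitor of NF-kB that NF-kB itself induces, was at 0.70 [0.67, 0.74], and Zfp36, which binds AU-rich elements and speeds decay, at 0.86 [0.78, 0.95]. Among genes of NF-kB subunits, Nfkb2, the other gene past the fold, was at 0.49 [0.27, 0.91] from 17 and 41 UMIs. Nfkb1 was at 0.69 [0.45, 1.09], Rela at 0.72 [0.41, 1.34] and Rel at 0.84 [0.54, 1.35], with intervals that held 1. Cebpb went the other way, at 1.10 [1.05, 1.155].

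Of 8 cytokines and receptors upstream of the ligands, 0 were higher and 2 lower by 1.5-fold in neutrophil-like cells. For this list and those that follow, the lower counts stand beside 12.2% of all genes in the class, and nothing is read from them. Il1b, an abundant inducer of the ligands, was at 22812 and 21408 CPM, a ratio of 0.94 [0.91, 0.96], and Il1a was at 0.46 [0.33, 0.64]. Osm, oncostatin M, was at 1.42 [1.23, 1.65]. Of 7 adhesion genes 0 were higher and 1 lower, Icam1 at 0.35 [0.23, 0.55]. Below the receptors, 0 of 12 signalling genes were higher and 2 lower: Bcl2a1b at 0.48 [0.42, 0.54] and Bcl2a1d at 0.42 [0.35, 0.51]. These are survival genes of near-identical sequence, and how well their reads can be told apart was not checked. Genes that respond to stress and tissue digestion had 0 of 14 higher and 2 lower, with a median of -0.11, close to that of all genes. Pf4, a platelet and macrophage chemokine, had 9 and 167 UMIs (33.1 and 123.6 CPM), 26 of the latter in 1 cell, against 802.9 and 536.9 CPM in the barcodes that hold free RNA.

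**Figure D5:**
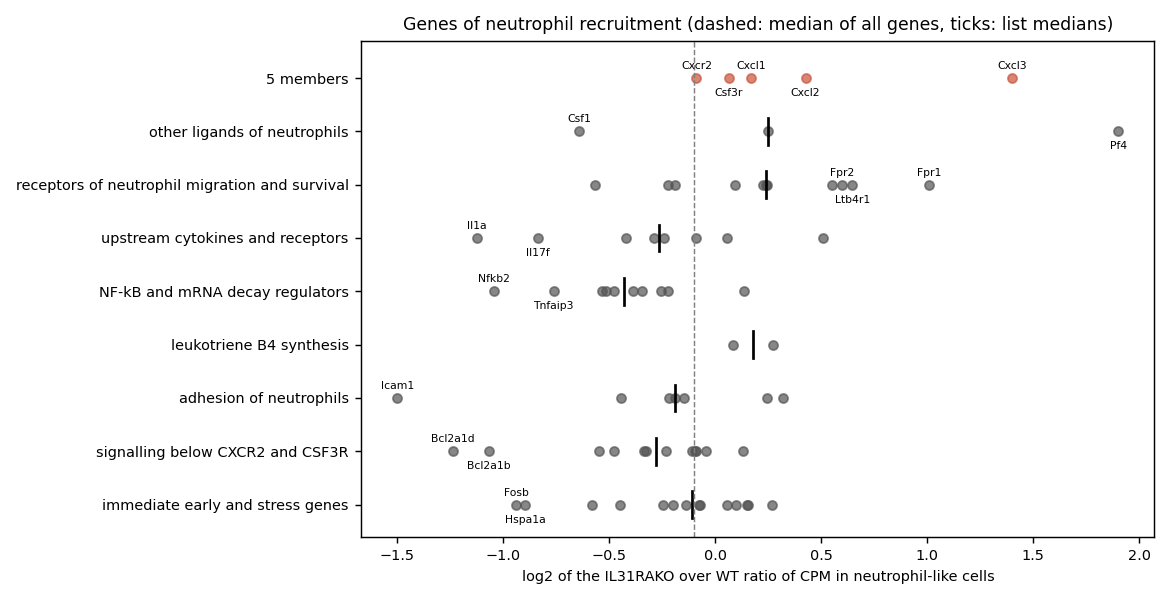
log2 of the IL31RAKO over WT ratio in neutrophil-like cells (x axis) for the 5 genes and for 8 lists, 1 point per gene with 50 or more UMIs, ticks at list medians and a dashed line at the median of all genes, -0.10. The 5 genes run from Cxcr2 at -0.09 to Cxcl3 at 1.40, and the regulator list has its median at -0.43.

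Over all cells, several other neutrophil ligands had few UMIs, while Pf4 had 13611 and 45037 and Mif 18668 and 23361. Cxcl5, a further CXCR2 ligand, had 7 UMIs in WT and 138 in IL31RAKO, of which 101 were in 1 cell. Ppbp, the precursor of a platelet CXCR2 ligand, had 70 and 315 UMIs, a ratio of 3.39 [2.61, 4.46]. Csf3, the ligand of CSF3R, had 20 and 40 UMIs, a ratio of 1.51 [0.86, 2.72], and Csf2 had 65 and 42, a ratio of 0.49 [0.32, 0.73]. Of 8 such ligands with 50 or more UMIs, 5 were higher and 1 lower by 1.5-fold, against 5.37% and 7.92% of all genes. Il17a and Il17f, cytokines that induce the ligands in skin cells, were lower in IL31RAKO, at 0.48 [0.48, 0.49] and 0.46 [0.45, 0.47]. Within T-like cells they were at 0.83 [0.82, 0.85] and 0.73 [0.71, 0.75]. Within dermal gamma-delta T-like cells they were at 0.47 [0.44, 0.51] and 0.47 [0.42, 0.52]. T-like cells made up 33.4% of WT and 22.9% of IL31RAKO cells, and dermal gamma-delta T-like cells 4.25% and 1.29%. Il1b was at 1.93 [1.91, 1.96] over all cells. The second CXCR2-type receptor, Cxcr1, had 11 and 77 UMIs, a ratio of 5.27 [2.79, 11.0], and Ackr1, which binds chemokines on venules and does not signal as they do, had 495 and 273, a ratio of 0.42 [0.36, 0.48].

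The genes whose levels ran most like each member across the 13 classes of both libraries were ranked by Pearson's r of log2(CPM + 10) over 26 points, as a description. These points share libraries, and most of the spread is neutrophil-like cells against the rest. Cxcl2 was most like Ccrl2 (r = 0.967), a chemerin receptor, then Armc3, Il1b, Nlrp3 and C5ar2. Cxcl3 was most like Wfdc21 (0.963), Gm20406, Ptgs2os2, Slfn4 and Lrg1, and Cxcl1 most like Actn1 (0.918), Lcn2, Asprv1, Steap4 and Chil1, of which Lcn2 was a gating marker of neutrophils and Asprv1 is known from keratinocytes. Cxcr2 was most like Irg1 (0.977), Ptgs2, Hdc, Gm17619 and H2-Q10, and Hdc, the enzyme that makes histamine, is a basophil gene. Csf3r was most like Fpr2 (0.97), Cd300lf, Sfxn5, Lrg1 and Trem1. Among the 5 genes themselves, Csf3r and Cxcl3 ran closest (0.911) and Cxcl1 and Cxcr2 least close (0.423).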

How the data were processed

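Droplet single-cell RNA sequencing gave raw UMI counts per gene and barcode, deposited with no cell filter (737280 barcodes and 27998 genes per library). Per the labels' protocols, 30000 cells per library went into the 10x Single Cell 3′ v2 kit. Cell Ranger 3.1, Seurat 3.2.2 and the build mm10 are named per the submitters' processing notes, with no role given, and the annotation release behind the gene list is not given in the sources used here. The libraries held 57000499 (WT) and 71333292 (IL31RAKO) UMIs.

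Cells were barcodes with 500 or more UMIs, 250 or more genes and under 10% mitochondrial UMIs (11934 and 14619). Each cell took the class with the highest mean score over its markers, each marker's log level being capped at its 90th-percentile value, at 0.25 or more and 0.1 above the second class. The rest, 25.0% and 23.4%, were left ungated, and 3043 and 3612 cells lay near the gate. Classes may differ from those of the study. Some T, gamma-delta T and B markers are not in the files' gene list, and dermal gamma-delta T-like rests on 3 markers. Doublets were kept, and an alternative removed those with the highest Scrublet scores (9.54% and 11.7% of cells).

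UMIs were summed by class and library. Levels have exact Poisson, shares exact binomial (Clopper-Pearson) and ratios exact conditional binomial 95% intervals. The ratio intervals were run on simulated Poisson counts, the model they assume. That run checks the calculation only, as it holds no clumping of UMIs in single cells. Named genes were the 5 members in every class, members of fixed lists with 50 or more UMIs in a class, and the 5 genes most like each member (200 or more UMIs). The members and lists were chosen with earlier results of these data known. Alternatives, with TMM factors from edgeR 4.0.16, are given under the processing heading. Gene positions are from GENCODE vM21 and promoters from RefSeq. Python 3.11.15, scanpy 1.11.5 and scipy 1.17.1 were used.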

Additional observations from a re-analysis of the deposited data

Results flagged for a closer look

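The following genes had counting intervals above 1 in some cell classes and below 1 in others. With 1 library per genotype these differences between classes were not tested. Cxcl1 had an IL31RAKO over WT ratio of 0.67 in macrophage-like cells, and of 2.61 in cDC2-like and 2.54 in keratinocyte-like cells. Cxcl2 had a ratio of 0.92 in macrophage-like cells against 1.09 in Langerhans-like, 1.34 in neutrophil-like, 1.59 in cDC1-like, 1.66 in cDC2-like, 1.80 in monocyte-like, 1.89 in regulatory T-like, 2.03 in basophil-like, 2.17 in mature DC-like, 2.32 in dermal gamma-delta T-like, 2.92 in fibroblast-like, 3.42 in T-like and 3.44 in keratinocyte-like cells. Cxcr2 had a ratio of 0.28 in Langerhans-like cells, and of 3.05 in cDC2-like and 3.54 in T-like cells. The macrophage-like ratios of Cxcl1 and Cxcl2 and the fibroblast-like ratio of Cxcl2 turned under another setting. Over the alternatives the Cxcl2 ratio ran from 1.58 to 3.46 in cDC1-like, 1.56 to 5.14 in dermal gamma-delta T-like and 2.63 to 6.59 in T-like cells. It ran from 1.54 to 6.62 in mature DC-like and from 2.33 to 7.05 in keratinocyte-like cells. The Cxcl1 ratio in cDC2-like cells ran from 1.39 to 2.94. A single cell held 111 of the 202 Cxcl2 UMIs of WT cDC1-like cells. In IL31RAKO, 96 of 203 in dermal gamma-delta T-like and 134 of 301 in fibroblast-like cells lay in 1 cell.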

How the results depend on the processing

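No paired analysis was possible because each genotype had 1 library, so the shared replicate number joins nothing. The 5 ratios over all cells and the 5 in neutrophil-like cells had 90 alternative values, of which 65 lay inside the counting interval of the reported value and 25 outside. The all-cell ratios stayed above 1 in each of them. For Cxcl1, Cxcl2, Cxcl3, Cxcr2 and Csf3r in that order, the all-cell ratios were 2.57, 3.53, 5.95, 2.71 and 2.71 as a mean over cells of UMIs per 10000, 1.54, 1.60, 2.22, 1.29 and 1.47 with the class mix held at WT shares, and 1.59, 1.81, 2.09, 1.49 and 1.94 without neutrophil-like cells (added after seeing the data). For Cxcl2 over all cells the ratio was 2.84 with TMM scaling, 2.73 with doublets removed, 2.75 with free RNA subtracted and 2.60 under 5% mitochondrial UMIs. Without the deepest cell of each library Cxcl3 was at 5.38. In neutrophil-like cells, Cxcl2 was at 1.46 with TMM scaling and 1.22 with classes from clusters, Cxcl3 at 2.17 with classes from clusters, and Cxcl1 at 1.81 with 1000 or more UMIs per cell and 0.80 with a stricter gate. Of the ratios whose counting interval left out 1, those on the other side of 1 were Cxcl1 in macrophage-like cells at 1.47 and Csf3r in ungated cells at 0.99, both with classes from clusters, Cxcl2 in macrophage-like cells at 1.15 as a mean over cells, and Cxcl2 in fibroblast-like cells at 0.89 with doublets removed. Of those whose interval held 1, Cxcl1, Cxcr2 and Csf3r in neutrophil-like cells crossed it (to 0.80, 1.05 and 0.95 at the farthest), as did Cxcl3 in monocyte-like cells (0.70) and Cxcr2 in macrophage-like cells (0.86), both with doublets removed, and Cxcl1 in Langerhans-like cells (1.16) with classes from clusters. The cause was not tested in any of these. Clusters gave no monocyte-like class, so that alternative has no value there. Genes higher by 1.5-fold over all cells numbered 715, and 3062 with no minimum of UMIs (lower, 1054 and 3040). In neutrophil-like cells 193 were higher and 342 lower, against 579 and 932 at 20 or more UMIs and 4215 and 3328 with no minimum. With cells thinned, the IL31RAKO over WT ratio of the share of all cells with a UMI was 4.07 for Cxcl3 at own depth, 5.96 at 1000 UMIs and 5.10 at 500, the last added after seeing the data. The depth of neutrophil-like cells, with medians near the 1000 UMIs of that thinning, and the 7 WT cells with Cxcl1 limit what can be read of Cxcl1 there.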

Other observations

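Of 10 genes of neutrophil adhesion, 2 were higher and 2 lower by 1.5-fold over all cells, against 5.37% and 7.92% of all genes. The lower ones were Sele and Selp, selectins of activated endothelium, which had 155 and 375 UMIs in WT and 37 and 182 in IL31RAKO, ratios of 0.18 [0.12, 0.26] and 0.37 [0.30, 0.44]. Endothelial-like cells made up 0.595% of WT cells (71) and 0.226% of IL31RAKO cells (33), few in a CD45+ sort and too few in IL31RAKO for a class of their own here. Among integrin chains of leukocytes, Itgam, a chain of the integrin Mac-1, was at 1.67 [1.58, 1.76], while Itgal, a chain of LFA-1, was at 0.69 [0.67, 0.72]. Alox5ap, needed for leukotriene synthesis, was at 1.41 [1.39, 1.43], and Lta4h, which makes leukotriene B4, at 0.90 [0.85, 0.95].

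Barcodes outside the cells also differed. In those over the mitochondrial limit, Cxcl2 was at 468.2 CPM in WT and 1116 CPM in IL31RAKO, and Cxcl3 at 8.71 and 40.9 CPM. Csf3r was at 8.50 CPM in WT and 52.6 CPM in IL31RAKO in barcodes of 10 to 50 UMIs, from 2 and 10 UMIs.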
